A study of Mus with 2 samples.

Results

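The chitinase-like, resistin-like and M2 lectin genes examined here were Chil1, Chil3, Chil4 and Chit1 of the chitinase family, Retnla and Retnlg of the resistin-like family, and the lectin genes Mrc1, Mgl2 and Clec10a. They were chosen by name as classical IL-4 induced secreted proteins and lectins with their paralogs, and they made up 9 of the 20144 genes that the array's probes could be matched to by RefSeq accession. Each was measured by 1 probe, printed at 1 spot per array. RNA came from bone marrow derived macrophages (BMDMs), which are macrophages grown from the marrow of male C57BL6/J mice, 10 weeks old per the study's methods, with 10 ng/mL of M-CSF for 7 d. Both cultures then received 10 ng/mL of IL-4 for 24 hr, which are the M2 conditions of the study, together with 10 µM GW4064 or with its solvent DMSO. The title, source name and treatment label of the GW4064 sample agree on the agonist, but its free-text description carries the wording for DMSO, so that every signed difference rests on the former labels. GW4064 is a synthetic agonist of the farnesoid X receptor (FXR), a bile acid sensing nuclear receptor. The comparison therefore asks how these genes differed with the agonist on top of IL-4. No array of cells without IL-4 was analysed here, and the sources do not say whether the marrow of several mice was pooled.

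With 1 array for each treatment, no gene has a replicate error or a p-value, and precision is limited by this number of arrays. A gene is called by size only, with 2-fold as the threshold. Values are the processed signal of the spot, which is its brightness after the scanner software subtracted the background, and differences are on the log2 scale, GW4064 minus DMSO, after the 75th percentile of each array was set to 0. The software attached an error to every spot, and for the 6 genes that were detected it came to 0.20 on the log2 scale of the difference. It was almost the same share of the signal for each of the 6. Whether the error ranges of a gene overlap therefore only restates the size of its unscaled ratio. Among the 140 probes that were printed several times, detected at every spot and had a DMSO signal of 1000 or more, the difference varied between copies with a median SD of 0.072 and at most 0.24. Both are errors of the spot and leave out the spread between cultures. Of 12 other processing settings, 5 (those on marked spots, dim probes, several probes and damaged areas) could not change a gene read at 1 unmarked, detected spot, and the deposited table differs by a constant. The remaining 6, which change the scaling or the background correction, are given below. Among them, centring on the median or the spike-in probes and leaving out the scaling each move every gene by 1 constant, at most 0.19. These cannot change the order of the genes.

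Alternatively activated macrophages are recognised by a small set of transcripts that IL-4 raises through STAT6. Chitinase-like proteins have the fold of chitinases, the enzymes that cut chitin, and most of them have lost the catalytic activity. Resistin-like molecules are small cysteine-rich secreted proteins. The lectins are C-type lectin receptors, which take up glycoproteins at the cell surface. In the reference annotation (GRCm38.p6) the genes lie in pairs with 0 other protein coding genes between them, namely Chil1 with Chit1, Chil3 with Chil4, Retnla with Retnlg, and Mgl2 with Clec10a, whereas Mrc1 stands alone. No probe sequence was used here, so whether a probe also bound the transcript of the neighbouring paralog was not tested.

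Of the 9 genes, 6 were well above background on both arrays and 3 on neither. Of the 6, 5 were higher and 1 was lower with GW4064, where 51.6% of all 13532 genes with a value were higher. Chil3 among the 5 was lower under 2 of the 6 settings that could change it. The 3 largest differences belonged to Mgl2, Retnla and Clec10a, each between 1.79-fold and 1.98-fold higher. None of the 6 reached 2-fold in either direction, against 0.82% of all probes well above background on both arrays that were at least 2-fold higher and 1.28% that were at least 2-fold lower. At 1.5-fold, 3 of the 6 were higher, where 2.44% of all such probes were, and 0 were lower, where 3.29% were. The median log2 difference of the 6 was 0.58, and that of all 13532 genes with a value was 0.0068.

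**Figure D1:**
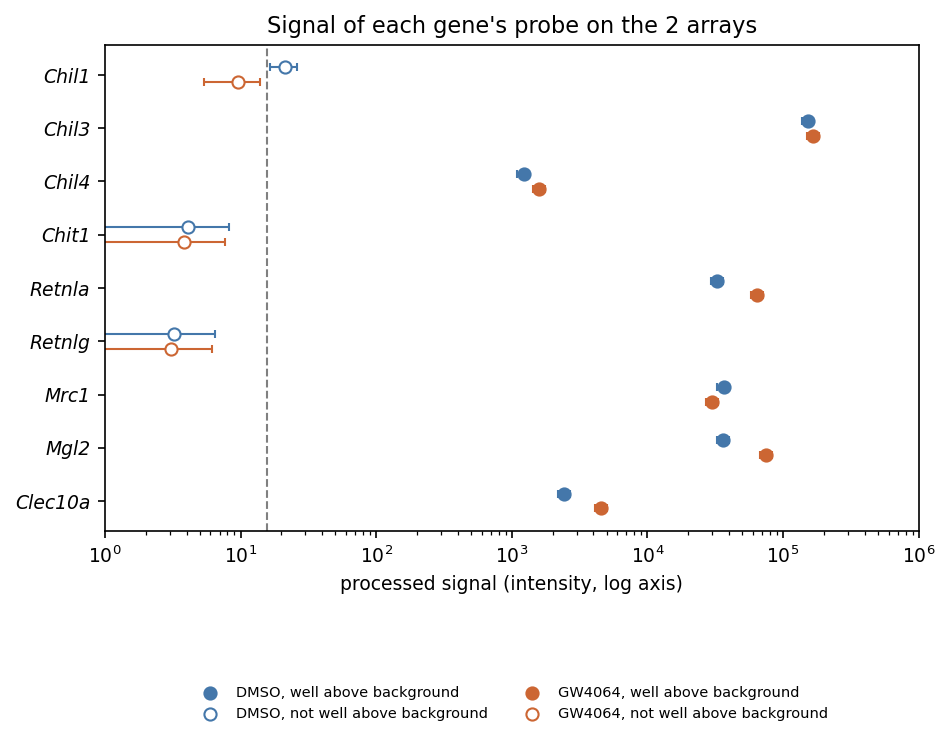
Processed signal (intensity, log axis) of the probe of each of the 9 genes on the DMSO array (blue) and the GW4064 array (orange), with the spot error given by the scanner software as bars. Filled points were well above background and open points were not, and the dashed line marks 15.7, the lowest signal well above background on the DMSO array. The points of Retnla, Mgl2 and Clec10a lie apart on the 2 arrays, those of Chil3 nearly coincide, and Chil1, Chit1 and Retnlg have open points only.

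Among the chitinase family, Chil3 encodes Ym1, a secreted lectin that forms crystals in inflamed lungs and is among the most used markers of mouse M2 macrophages. Its signal was 152215 ± 15222 (spot error) with DMSO and 166782 ± 16678 with GW4064. The 2 values were within the spot error of each other, with a log2 difference of 0.066, or 1.05-fold. Over the 6 other scalings and corrections the difference lay between -0.12 and 0.13, and it was below 0 after centring on the spike-in RNA and after a loess on the mean level. Among the 538 probes within 2-fold of its mean level the median difference was 0.060, and Chil3 ranked 260th from the highest. The probe thus stood in the middle of the probes of like brightness. By RT-qPCR, the study reported Chil3 as higher with GW4064 under M2 conditions.

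Chil4 encodes Ym2, the closest paralog of Ym1. Its signal was 1223 ± 122 with DMSO and 1599 ± 160 with GW4064, a log2 difference of 0.32, or 1.25-fold. The spot error ranges did not overlap. It was higher under each of the 6, with 0.13 as the lowest value. The difference was inside the central 95% of the 4358 probes within 2-fold of its level, which ran from -0.44 to 0.44.

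Chil1 encodes BRP-39, the mouse counterpart of human YKL-40, and Chit1 encodes chitotriosidase, an active chitinase of macrophages. The signal of Chil1 was 21.1 ± 4.74 with DMSO and 9.61 ± 4.21 with GW4064, and that of Chit1 was 4.12 ± 4.11 and 3.85 ± 3.83. Neither probe was well above background on either array, so no fold is given for them. The only differences that can be written for this pair come from signals at the level of the background.

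Of the other chitinase family genes (Chia1, Chil5, Chil6, Chid1, Ctbs and Ovgp1), Chil5 had no matched probe and Chia1 and Chil6 did not pass the background filter. Ctbs, which encodes the lysosomal enzyme chitobiase, had signals of 584 and 560 and a log2 difference of -0.12. Chid1, whose product binds chitin-like sugars, had signals of 522 and 553 and a log2 difference of 0.017. Ovgp1, the gene of an oviduct glycoprotein, was 2.34-fold lower, from a signal of 153 to 68.5. Without damaged areas Ovgp1 had no value, and the median of the 2 genes that kept one was -0.054. The chitinase family genes therefore did not share 1 direction on these arrays, though the differences of Chid1 and Ctbs were small.

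Retnla encodes RELMα, also called FIZZ1, a secreted protein that IL-4 raises strongly in mouse macrophages. Its signal was 32778 ± 3278 with DMSO and 64452 ± 6445 with GW4064. The ranges of the spot error did not overlap, and the log2 difference was 0.91, or 1.88-fold. It was higher under each of the 6 other scalings and corrections, between 0.72 and 0.98. Among all 21707 probes well above background on both arrays it ranked 229th from the highest, and 10th of the 1378 probes within 2-fold of its level, whose central 95% ran from -0.32 to 0.45.

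Retnlg encodes RELMγ, a paralog known from neutrophils and bone marrow. Its signal was 3.25 ± 3.23 with DMSO and 3.06 ± 3.05 with GW4064, and it passed the background filter on neither array, nor did Retnlb. Retn, which encodes resistin, had a signal of 15.9 with DMSO, not well above background, and of 24.8 with GW4064, 1.49-fold higher. Of the resistin family, Retnla was thus the single gene measured on both arrays.

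Among the lectins, Mgl2 encodes CD301b and Clec10a encodes CD301a, the mouse macrophage galactose-type lectins, which bind galactose and N-acetylgalactosamine. The signal of Mgl2 was 36153 ± 3615 with DMSO and 74914 ± 7491 with GW4064. Its log2 difference of 0.99, or 1.98-fold, was the largest among the 6 detected genes and was just under the 2-fold threshold. The unscaled signals differed by 1.05 on the log2 scale, past the threshold, and over the other 5 scalings and corrections the difference was between 0.79 and 0.97. Mgl2 ranked 183rd from the highest among the 21707 probes, and 6th of 1295 within 2-fold of its level, where the central 95% ran from -0.32 to 0.44.

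The signal of Clec10a was 2421 ± 242 with DMSO and 4543 ± 454 with GW4064, a log2 difference of 0.84, or 1.79-fold. It was higher under all 6 other scalings and corrections, between 0.65 and 0.91. It ranked 271st from the highest overall and 25th of the 4228 probes within 2-fold of its level, whose central 95% ran from -0.38 to 0.40. The differences of Mgl2 and Clec10a were 0.14 apart, less than the spot error of 0.20 of each. The difference of Retnla was 0.076 below that of Mgl2, so that the order of these 3 genes is not settled by the spots.

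Mrc1 encodes the mannose receptor CD206, whose protein is the usual surface marker of M2 macrophages. Its signal was 36422 ± 3642 with DMSO and 30036 ± 3004 with GW4064, so that the spot error ranges of the unscaled signals overlapped in part. The log2 difference was -0.34, or 1.27-fold lower with GW4064, and the value was between -0.53 and -0.28 over the 6 other scalings and corrections. It ranked 36th from the lowest of the 1638 probes within 2-fold of its level, just outside the central 95%, which ran from -0.33 to 0.44. The Mrc1 probe was therefore lower with GW4064 on the arrays on which the other 2 lectin probes were 1.79-fold and 1.98-fold higher. The study reported surface CD206 protein as higher with GW4064, at other doses and after a longer time. It also reported Mrc1 mRNA as higher in peritoneal macrophages of chitin-treated mice given GW4064.

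**Figure D2:**
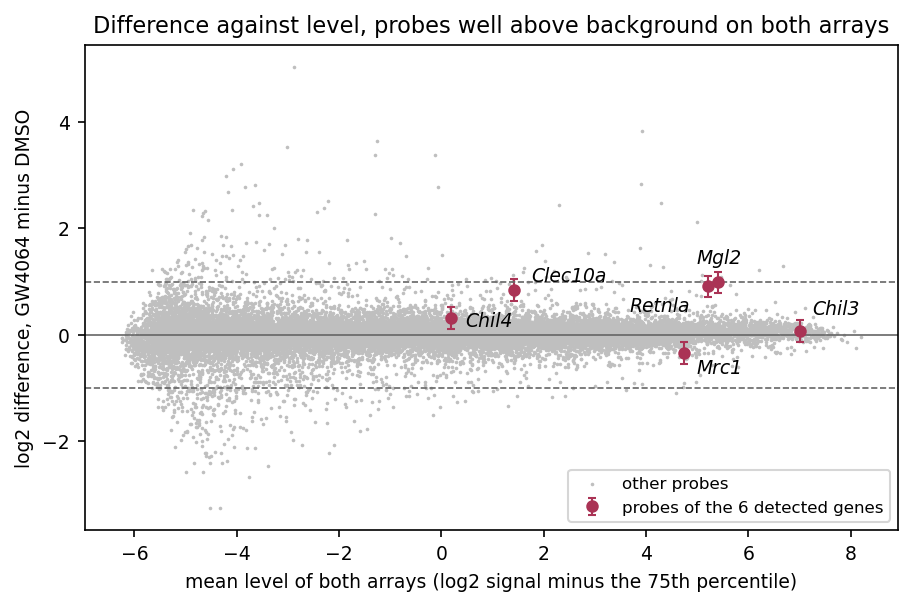
Log2 difference between the arrays (GW4064 minus DMSO) against the mean level of both arrays (log2 signal minus the 75th percentile) for the 21707 probes well above background on both. Grey points are other probes, red points are the 6 detected genes with the spot error of 0.20 as bars, and dashed lines mark 2-fold. Mgl2, Retnla and Clec10a lie just under the upper line and above the grey cloud at their level, Mrc1 lies at its lower edge, and Chil3 and Chil4 lie within it.

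Areas of the slide with many large differences between single spots did not touch these genes. None of the 9 spots was marked as uneven or as an outlier by the software, and 0 spots on either array were saturated. Within 300 µm of 8 of the 9 spots lay 0 other spots that differed 8-fold or more, and near Mrc1 lay 1. The median difference of the 57 to 60 spots around each of the 6 detected genes was between -0.20 (Chil3) and 0.12 (Chil4). It was -0.059 around Mgl2, -0.036 around Clec10a, -0.16 around Retnla and -0.077 around Mrc1.

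**Figure D3:**
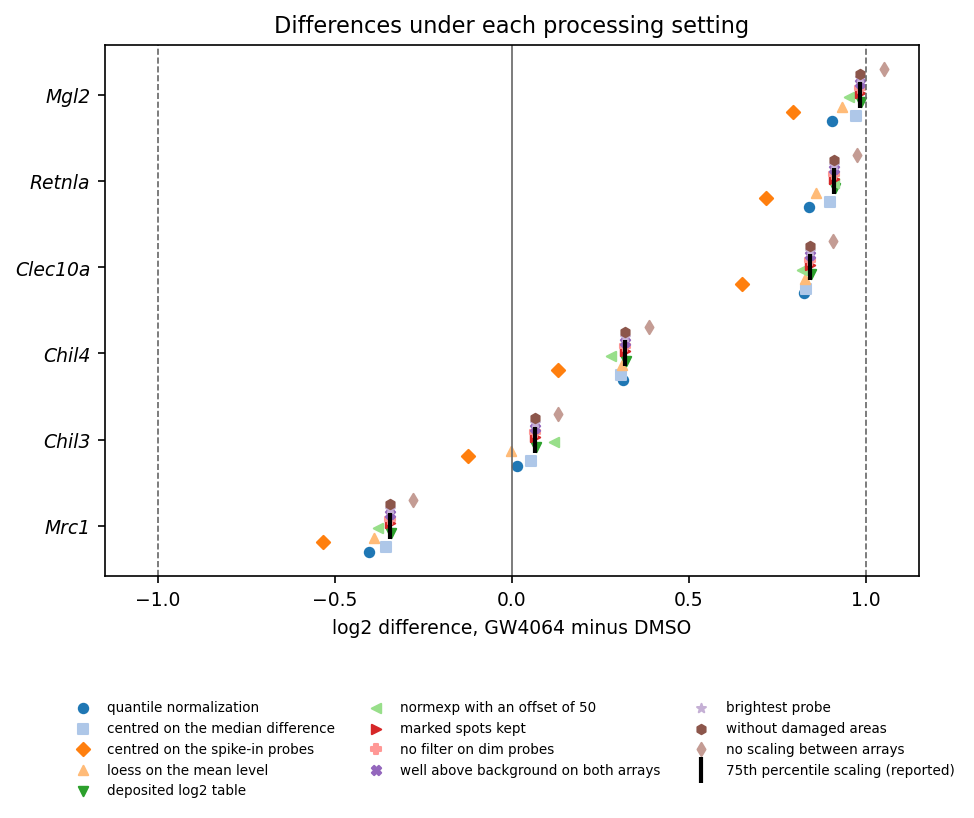
Log2 difference (GW4064 minus DMSO) of the 6 detected genes under the reported scaling (black bar) and under 12 other settings (coloured symbols), with dashed lines at 2-fold. Mgl2, Retnla, Clec10a and Chil4 stay above 0 and Mrc1 below 0 in all of them, Chil3 falls on both sides of 0, and Mgl2 alone passes 2-fold, when the arrays are not scaled. Symbols on the bar include 5 settings that could not change these genes. The orange diamonds, centred on the spike-in RNA, lie lowest for each gene.

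Other genes listed here as an IL-4 programme did not move as 1 group. Whether IL-4 raised each of them in these cells was not tested, since no array without IL-4 was analysed. In this list of 42 genes, without the 9 above, 38 were measured. Of these, 19 were higher and 19 lower, with a median log2 difference of 0.00040. At the 2-fold threshold 3 of them were higher and 2 lower, beside 2.04% and 2.71% of all genes with a value. Centred on the spike-in RNA, which lowers the median of all detected probes to -0.18, the median of the list was -0.19, with 12 higher and 26 lower. Without damaged areas, 31 genes of the list had a value, 14 higher and 17 lower. The list thus followed all genes at its median, while its extremes lay far out in both directions.

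The higher genes were Arg1, Tgm2 and Ptgs1. Arg1 encodes arginase 1, which the study used with Chil3 and Retnla as an M2 gene and reported, like them, as higher with GW4064 by RT-qPCR. Its signal was 4875 with DMSO and 72297 with GW4064, 14.2-fold higher. Tgm2, the gene of transglutaminase 2, was measured by 2 probes that were 4.35-fold and 5.59-fold higher, and Ptgs1, the gene of cyclooxygenase 1, was 2.58-fold higher.

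The lower genes were F13a1, which encodes a chain of coagulation factor XIII, and Il10, the gene of the cytokine IL-10. F13a1 was 3.64-fold lower on 1 probe, from a signal of 87.6 to 25.2, and its second probe stayed at background on the 2 arrays. Il10 was printed at 10 spots per array, with a mean signal of 45.5 with DMSO and 16.8 with GW4064, where it did not count as well above background. The difference of its mean log2 values was -1.60. Both were dim on these arrays.

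For the genes of the IL-4 receptor and its signalling, most differences were small. Of 15 listed genes 14 were measured, 4 of them higher and 10 lower, with a median log2 difference of -0.10. Il4ra, the receptor chain that binds IL-4, had a difference of -0.15 on both of its probes, and Stat6, the transcription factor that it activates, had a mean of -0.010 over 3 probes. Il13ra2, the decoy receptor for IL-13, was 2.25-fold lower, from a signal of 92.0 to 42.7. It was the single gene of this list past 2-fold, and it was dim.

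Of 14 other C-type lectin genes, among them the Cd209 genes, 6 were measured, 1 higher and 5 lower, with a median log2 difference of -0.53. Their summed signal was low on both arrays, 466 with DMSO and 374 with GW4064. Without damaged areas, 3 of these lectins had a value, 0 higher and 3 lower, with a median of -1.30. Cd207, which encodes langerin, was 3.20-fold lower, from a signal of 72.1 to 23.5, and Mrc2, which encodes the mannose receptor relative Endo180, was 2.47-fold lower on 1 of its 2 probes. Asgr2, a subunit of the hepatic asialoglycoprotein receptor, differed by 0.0086, and Cd209d, counted as lower, by -0.026. Cd209e is on both this list and the IL-4 list. The direction of Mgl2 and Clec10a was thus not that of most of these lectins.

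**Figure D4:**
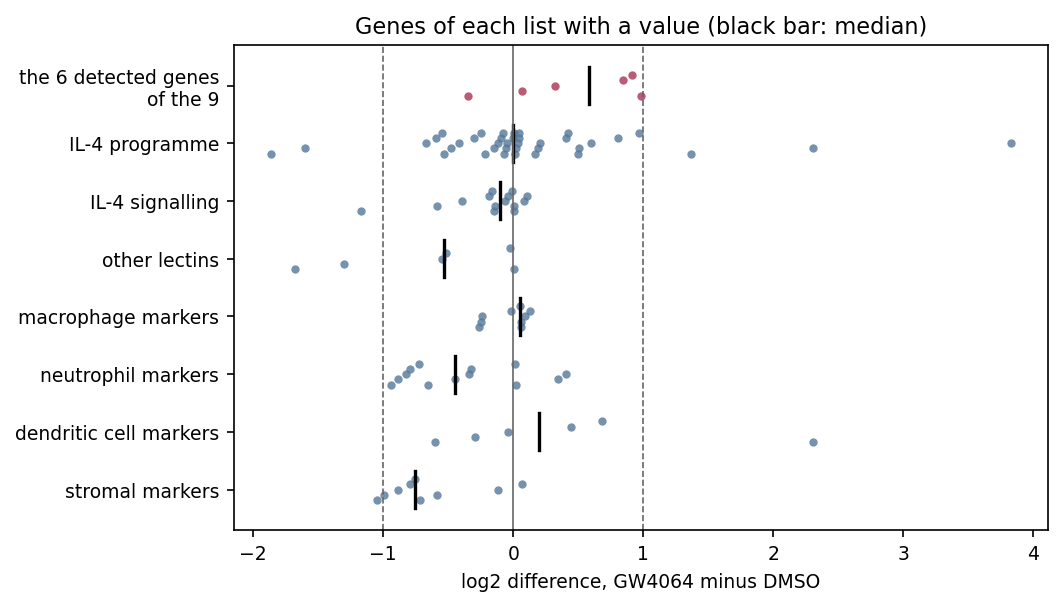
Log2 difference (GW4064 minus DMSO) of each gene with a value, by list, with the median of each list as a black bar and dashed lines at 2-fold. The 6 detected genes (red) have a median of 0.58, the IL-4 programme list has a median near 0 with Arg1 far to the right, and the neutrophil and stromal markers have medians of -0.45 and -0.76.

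The cell type of the cultures was checked against macrophage markers. Of 10 markers, 9 had a matched probe and all 9 were measured on at least 1 array, with differences between -0.26 and 0.13. Their summed signal was 343262 with DMSO and 328655 with GW4064. Adgre1, the gene of F4/80, had differences of -0.20 and -0.30 on its 2 probes. Csf1r, the gene of the M-CSF receptor, had a mean of -0.24 over 3 probes. Of the 9 markers 5 were higher and 4 lower, with a median of 0.055. The higher ones were Cd14 (0.13), Itgam (0.089), Lyz2 (0.062), Mertk (0.058) and Fcgr1 (0.055).

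Chil3 and Retnlg are also known from neutrophils and their precursors, and Mgl2 and Clec10a from dendritic cells, so markers of these cells were set beside them. In a list of 15 neutrophil genes 13 were measured, 4 higher and 9 lower, with a median log2 difference of -0.45 and a summed signal of 73266 with DMSO and 71489 with GW4064. Most of that sum came from the brightest probe, that of Csf3r, the gene of the G-CSF receptor, with a difference of 0.011. Ly6g had no matched probe and Fcnb passed the background filter on neither array. Mpo and S100a9, which encode myeloperoxidase and a calprotectin subunit, had the lowest differences of the list, -0.94 and -0.88. Besides Csf3r, the higher genes were Prtn3 (at least 0.41, and not well above background with DMSO), Cxcr2 (0.34) and Mmp8 (0.020). The part of the listed genes in the value of Chil3 was not tested.

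Of 10 dendritic cell genes 6 were measured, 3 higher and 3 lower. Their median log2 difference was 0.20, or 0.011 centred on the spike-in RNA. The summed signal was 227299 with DMSO and 203175 with GW4064. Xcr1, Clec9a, Dpp4 and Cd209a passed the background filter on neither array. The difference was 0.68 for Cd83, -0.60 for Ccr7 and -0.041 for Siglech. Flt3, the receptor of a dendritic cell growth factor, was at least 4.94-fold higher on 1 of its 2 probes, reading 81.5 with GW4064. The brightest probe of the list, that of Itgax (CD11c), which macrophages also express, gave most of the summed signal and had a difference of -0.30. Zbtb46, a transcription factor gene of classical dendritic cells, had a mean difference of 0.44 over 2 dim probes, 1 of them not well above background with DMSO. Without damaged areas, 4 genes of the list had a value, 2 higher and 2 lower, with a median of 0.15. Zbtb46 was then read by 1 probe, at 0.34, and either Flt3 or Cd83 had no value. The part of dendritic cells in the values of Mgl2 and Clec10a was not tested.

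In the list of 10 stromal cell genes, 9 were measured and 8 were lower, with a median of -0.76 and a summed signal of 40348 with DMSO and 22759 with GW4064. The brightest probe, for Sparc, had a difference of -0.90, and Acta2, the gene of smooth muscle actin, was 2.07-fold lower. These genes were lower on the array on which 5 of the 6 detected genes were higher, and their part in those values was not tested. In bulk RNA, fewer cells of a type and less RNA per cell cannot be told apart.

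The scaling moved the direction of several lists. Centred on the spike-in RNA, 0 of the 14 IL-4 signalling genes, 0 of the 6 other lectins, 0 of the 9 macrophage markers, 2 of the 13 neutrophil genes and 0 of the 9 stromal genes were higher. Without scaling, 7 of the 14 IL-4 signalling genes, 2 of the 6 other lectins, 6 of the 9 macrophage markers and 4 of the 6 dendritic cell genes were higher. Mgl2, Retnla, Clec10a and Chil4 were higher and Mrc1 was lower under both.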

How the data were processed

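BMDMs under M2 conditions with DMSO or 10 µM GW4064 were measured on 1 Agilent 1-colour array each, on 1 slide read in 1 scan. The authors deposited the intensity of each spot from Feature Extraction 10.7.1.1 (background subtracted and detrended within the array, not scaled between arrays), and a log2 table of both arrays. The columns of that table have medians of 0.035 and -0.051. Their difference equals the one computed here for 39200 probes, apart from a constant of 0.0022, so that scale and direction are known and the baseline of each probe is not. The paper does not state how its data were normalized and filtered.

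Here the processed signal was put on the log2 scale and the 75th percentile over non-control spots (1209 for DMSO, 1265 for GW4064) was subtracted. Marked spots were left out, and the log2 values of the spots of 1 probe were averaged. A probe printed several times was well above background if most of its spots were. A probe well above background on 1 array only kept its own value on the other, but no less than the dimmest detected probe there (a signal of 15.7 for DMSO, 15.1 for GW4064). Where this floor replaced the own value, the difference is a bound. A gene is the mean over its measured probes. Names came from RefSeq accessions of GRCm38.p6, which matched 26581 probes. The files' design used mm9, so none of its coordinates is printed. No test was made, since each treatment has 1 array. The members, the gene lists and the rule for named genes were chosen with earlier results of these data known. All 9 members are named, and from each list the genes 2-fold or more higher or lower, at most 5 each way, with the brightest marker of each cell type and Arg1. Other list genes given for their known role were named after their values were seen. The 12 other settings are quantile normalization, centring on the median or the spike-in probes, a loess (span 0.3), the deposited table, a normexp correction of the median intensity (offset 50), marked spots kept, no filter on dim probes, only probes detected on both arrays, the brightest probe, leaving out damaged areas (2 or more other spots differing 8-fold within 300 µm), and no scaling, which was added after seeing the data. The calculations were tested on simulated data. The normexp step ran in limma 3.58.1 under R 4.3.3. The rest ran in Python 3.11.15 with pandas 2.3.3 and numpy 2.4.6, the loess with statsmodels 0.14.6, distances with scipy 1.17.1 and plots with matplotlib 3.10.9.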

Additional observations from a re-analysis of the deposited data

How the results depend on the processing

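No paired analysis was possible because DMSO and GW4064 have a single array each, and for the same reason no array could be left out. Of 124 values computed under the alternatives, 111 moved by less than the median SD of 0.077 between copies of a probe, or kept their count. Of these, 30 are values of the 6 detected genes that the setting could not change, so they say nothing about stability, and 6 more come from the deposited table, which differs by a constant. Centred on the spike-in RNA, the log2 differences were 0.79 for Mgl2, 0.72 for Retnla, 0.65 for Clec10a, 0.13 for Chil4, -0.12 for Chil3 and -0.53 for Mrc1. The median of the detected genes was then 0.39 and that of the IL-4 programme list -0.19. This setting lowers every difference by 0.19, so that the order of the genes is the same. Under quantile normalization Mgl2 had 0.91. Without a filter on dim probes, 9 genes had a value, their median was 0.066, and 1 gene, Chil1, was 2-fold or more lower (-1.20) from signals at background. At a threshold of 1.5-fold 3 genes were higher. Without scaling, chosen after seeing the data, 1 gene was 2-fold or more higher, Mgl2 with 1.05. Chil1, Chit1 and Retnlg are limited by their signal over background.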

Other observations

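Genes known as targets of FXR were set beside the 9 genes. Of 8 listed genes 5 were measured, 3 higher and 2 lower (2 higher and 3 lower centred on the spike-in RNA). Without damaged areas, 4 of the listed genes had a value, 2 higher and 2 lower. Sdc1, which encodes syndecan 1, was 2.18-fold higher, from a signal of 2163 to 4925. Nr0b2, which encodes SHP, had signals of 22.5 and 45.5 and was 1.94-fold higher. Either Sdc1 or Nr0b2 was the gene without a value once damaged areas were left out, where the median of the list was -0.77. Abcb11, the bile salt export pump gene, was 3.15-fold lower, from a signal of 58.5 with DMSO. Slc51b, a subunit gene of a bile acid transporter, was at least 3.14-fold lower, from a signal of 45.3 with DMSO. Neither was well above background with GW4064. The probe for Nr1h4, the gene of FXR itself, had signals of 3.46 and 3.24 and passed the background filter on neither. Each of these values rests on 1 spot per array. By real-time PCR, the study reported Nr1h4 expression in BMDMs.

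In the list of 9 eosinophil and mast cell genes, 5 were measured, 3 higher and 2 lower (1 higher and 4 lower centred on the spike-in RNA), and Prg2 was 2.77-fold lower, from a signal of 132 to 49.9. Siglecf, with the brightest probe of that list, had a mean difference of 0.10. In the list of 8 lymphoid genes, 3 were measured, 1 higher and 2 lower (0 and 3 centred on the spike-in RNA), and Ms4a1 was at least 2.47-fold lower, from a signal of 35.8. Cd4, with the brightest probe there, had a difference of -0.15.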
